A study of Saccharomyces cerevisiae with 8 samples.

Results

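The respiratory chain of the budding yeast Saccharomyces cerevisiae is described here through 40 nuclear genes among the 7126 features of a whole-transcriptome table. The genes are given by systematic name for the enzyme they encode, and no threshold on a measured value picks them, though the set was chosen with earlier results of these data known. They fall into 6 role groups: 3 NADH dehydrogenases, 4 subunits of complex II, 9 of complex III, 8 of complex IV, 14 genes of the ATP synthase and 2 lactate dehydrogenases. All 40 passed the filter on low values, a mean of at least 1 RPKM (reads per kilobase of gene, divided by a library size) over the libraries. How that library size was set is not given in the sources used here.

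RNA was sequenced from 8 libraries, 2 for each of 4 genotypes: WT, cac2 mutant, psh1 mutant and psh1 cac2 mutant. CAC2 encodes a subunit of chromatin assembly factor 1, and PSH1 encodes a ubiquitin ligase that acts on Cse4, the histone H3 variant of centromeres. All 4 genotypes carried induced overexpression of Cse4: raffinose cultures diluted to an OD600 of 0.1 grew for 2 h at 30 °C, and galactose was then added to 4% for 10 h. Each genotype is represented by 1 strain grown in duplicate, and no uninduced library was analysed here, so a difference between genotypes is a difference between strains that all overexpress Cse4.

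In yeast the respiratory chain takes electrons from NADH, succinate and lactate and passes them to oxygen, and the proton gradient this builds drives the ATP synthase. S. cerevisiae lacks the large proton-pumping complex I of mammals and uses single-chain NADH dehydrogenases in its place. Most subunits are encoded in the nucleus, a few core subunits in the mitochondrial genome, and nuclear respiratory genes are known to be repressed by glucose and activated through the CCAAT-binding Hap2/3/4/5 complex. Cells growing on raffinose or galactose ferment, but glucose repression is relieved in part.

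The 500 bases before the start codon of each gene were searched on both strands for the core letters of the Hap2/3/4/5 site, CCAAT, and for a longer form that contains it, ACCAATNA. CCAAT was found before 37 of 40 genes (92.5%), against 62.4% of 6000 promoters of the same length, and ACCAATNA before 18 of 40 (45%), against 8.6%. NDE2, CYT1 and COX4 had no CCAAT in the window. One match of ACCAATNA per role group is printed so that the shared letters can be compared. They were read from assembly R64 on the strand of the gene, with the match in capitals and 30 bases in all. The COX6 match reads on the other strand, so its capitals are the reverse complement.
NDI1, chrXIII:30017-30046, minus strand, 228 bases before the start codon: tattcattcggACCAATCAtatgaaggcat
SDH1, chrXI:171429-171458, minus strand, 318 bases before: ggcgggggtggACCAATCAcagcgcagaac
RIP1, chrV:107001-107030, plus strand, 248 bases before: ctccataacggACCAATCAgcgttttgcgc
COX6, chrVIII:209477-209506, plus strand, 217 bases before: gaaaagggaccTAATTGGTccggtcaaagc
ATP3, chrII:315368-315397, plus strand, 196 bases before: cgtgatggagaACCAATGAgcggcgagtaa
CYB2, chrXIII:167479-167508, minus strand, 189 bases before: actacgacccgACCAATAAtaatgtcatac

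A further search used the spaced CGG pair bound by Hap1, the haem-responsive activator, that is CGG, any 3 bases, TA, any 1 base and CGG, on both strands. It matched before 1 of 40 genes (2.5%), against 0.35% of promoters. That gene was QCR6, a small acidic subunit of complex III, which held 2 matches, shown because no other of the 40 genes had one.
QCR6, chrVI:224974-225003, minus strand, 225 bases before the start codon: agcacgttcCGGGCATATCGGactggggcg
QCR6, chrVI:225039-225068, minus strand, 290 bases before, match on the other strand: ggcggcctgCCGGTACATCCGtcacctaca
These matches describe the letters of the windows and do not show binding.

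The genes of the chain were abundantly transcribed in WT. Of the 40 genes 38 lay in the top 25% of tested features by WT level, and the median gene lay at percentile 92.0. The mean WT RPKM of the complex IV genes ran from 176 for COX7 to 423 for COX5A, with a median of 290. Those of the ATP synthase ran from 107 for TIM11 to 646 for ATP2, the catalytic beta subunit, and had a median of 246. Complex III ran from 124 for QCR9 to 404 for QCR7, with a median of 225, and complex II from 103 for SDH4 to 229 for SDH2, with a median of 162. Lowest were the lactate dehydrogenases, at 36.6 for CYB2 and 77.6 for DLD1, and NDE2, at 42.1, while its paralogue NDE1 stood at 347. QCR9 and QCR10 have 1 intron each, and the lengths that reproduce their deposited values (414 and 297 nt) include it, so their levels per spliced length would be higher. Differences between genotypes within a gene are not touched by this.

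Transcripts of the chain were more abundant in the psh1 mutant than in WT. Reads of the 40 genes made up 0.749% and 0.767% of the reads of annotated genes of WT, 1.02% and 1.08% in psh1, 0.723% and 0.701% in psh1 cac2 and 0.659% and 0.606% in cac2. In these shares the psh1 libraries were the highest and the cac2 libraries the lowest, with no overlap between any of the 4 genotypes. The deposited RPKM divide by another library size, and the order below psh1 depends on it. The median RPKM of the 40 genes was 230 and 235 in WT, 293 and 318 in psh1, 240 and 234 in psh1 cac2 and 228 and 206 in cac2. By that measure WT and psh1 cac2 overlapped. The ATP synthase took the largest share, a mean of 0.328% in WT and 0.456% in psh1, and complex III followed with 0.160% and 0.231%. In bulk RNA, fewer cells with a transcript and less of it per cell cannot be told apart.

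**Figure D1:**
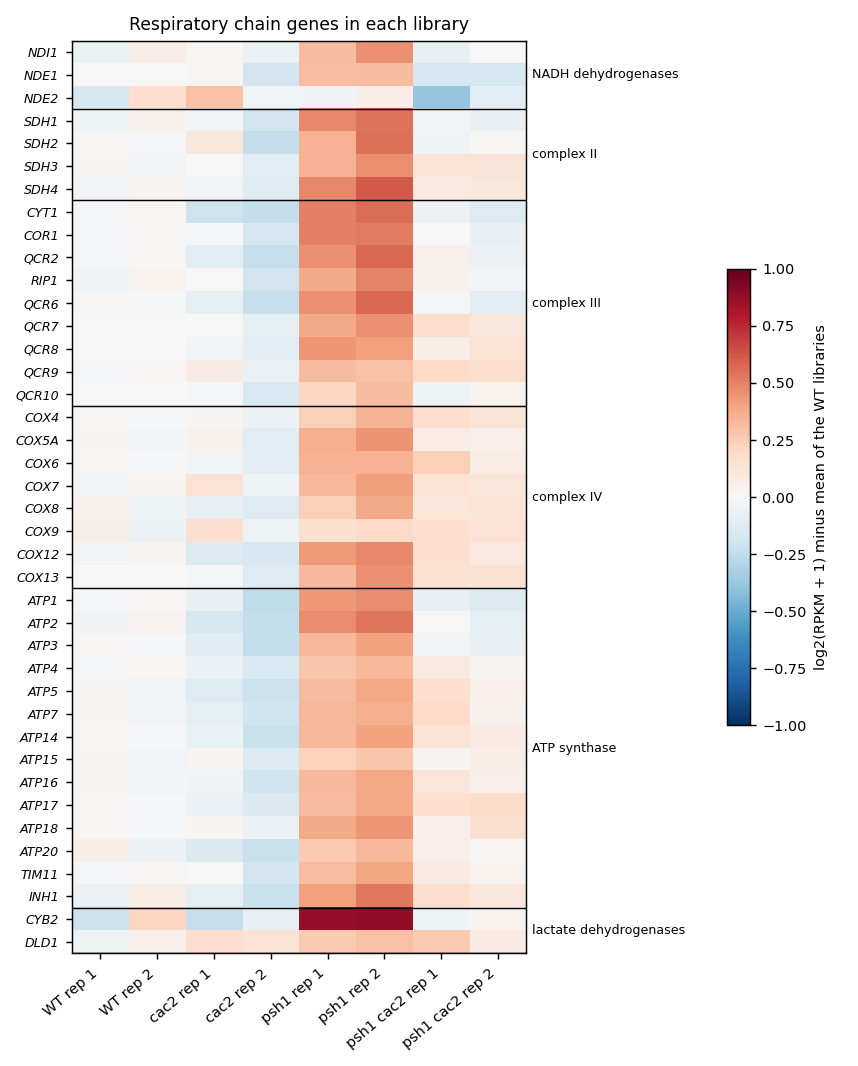
Level of the 40 genes in the 8 libraries, as log2(RPKM + 1) minus the mean of the WT libraries, with genes in rows by role group and libraries in columns. The psh1 columns are the highest for 37 of 40 genes, against 19.6% of all tested features.

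Against WT, 35 of 40 genes rose in psh1 and 0 fell (limma, Benjamini-Hochberg adjusted p under 0.05 over 6366 features), where 7.65% of all tested features rose and 6.90% fell, 14.5% in all. The median log2 difference of the 40 genes was 0.38, and that of all features was 0.00. Both psh1 libraries lay above both WT libraries for 39 of 40 genes, against 30.0% of tested features, and above all 6 other libraries for 37 of 40, against 19.6%. The changes were small, from 0.01 to 0.88 on the log2(RPKM + 1) scale. The count rests on the replicates of the pair: leaving out WT replicate 1 or 2 gave 10 or 16 genes, and leaving out psh1 replicate 1 or 2 gave 14 or 1. The share of all tested features that rose dropped with it, from 7.65% to 1.49%, 4.12%, 2.03% and 0.581%, in the same order. The gene left without psh1 replicate 2 was CYT1. Scaling to total reads, here the reads recovered in annotated genes rather than all reads of a library, gave 38 of 40 genes. In that scaling 12.2% of all features were higher and 5.47% lower. The psh1 replicates also differed from each other in 1 direction, with replicate 2 above replicate 1 for 37 of 40 genes, against 49.6% of tested features.

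Adding the cac2 mutation to psh1 went with lower levels. Of the 40 genes 27 fell between psh1 and psh1 cac2 and 0 rose (limma), where 12.2% of all tested features fell and 11.2% rose, 23.5% in all. The median difference was -0.29, and that of all features -0.02. Both psh1 cac2 libraries lay below both psh1 libraries for 38 of 40 genes, against 35.7% of tested features. Leaving out replicate 1 or 2 of psh1 gave 13 or 11 genes, and leaving out replicate 1 or 2 of psh1 cac2 also gave 13 or 11, while the share of all features that fell was 4.13%, 4.26%, 6.08% and 3.00%. Scaling to total reads shifted the balance of the whole table, with 34.8% of all features lower and 6.68% higher, and 38 of 40 genes then fell, with a median of -0.42 against -0.15 for all features. This comparison shares its psh1 libraries with the one against WT, so the 2 sets of values are not independent.

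The other comparisons called none of the 40 genes. In cac2 against WT 4 of the 40 genes, and 1434 of the 6366 tested features, had an unadjusted limma p under 0.05. After adjustment 0 of the 40 passed, and 2.75% of all features rose and 1.51% fell, 4.26% in all. The median was -0.09, with 35 of 40 values below 0, and scaling to total reads, which moves the median of all features by -0.14, turned 19 of these genes into calls, all lower, with 24.3% of all features lower and 2.58% higher in that scaling. Replicate 2 lay below replicate 1 in cac2 for 39 of 40 genes, against 56.1% of tested features. For psh1 cac2 against WT 2 of the 40 genes, and 1578 of the 6366 features, had an unadjusted limma p under 0.05. After adjustment 0 passed, 3.86% of all features rose and 2.18% fell, 6.05% in all, and the median was 0.07. Scaling to total reads also gave 0 calls among the 40 genes here, with 2.84% of all features higher and 9.14% lower. For psh1 cac2 against cac2 19 of the 40 genes, and 1515 of the 6366 features, had an unadjusted limma p under 0.05. After adjustment 0 passed, 0.393% of all features rose and 0.503% fell, 0.895% in all, and the median was 0.16.

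The interaction asks whether the cac2 mutation changes a level differently with and without PSH1. All 40 estimates were below 0, with a median of -0.23 against -0.01 for all features. An unadjusted limma p under 0.05 was seen for 20 of the 40 genes, against 866 of the 6366 features. None of the 40 passed after adjustment, and 0.0157% of all features, a single one, were called. A difference in the cac2 effect between the PSH1 backgrounds was therefore not shown for any of the genes.

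The largest value of each role group shows how far these comparisons reached. In cac2 against WT they were -0.22 for CYT1, -0.21 for ATP2, 0.16 for DLD1, -0.15 for COX12, 0.13 for NDE2 and -0.11 for SDH1, with limma adjusted p from 0.105 (CYT1) to 0.63 (NDE2). Against WT, psh1 cac2 had -0.25 for NDE2, 0.19 for QCR9, 0.18 for ATP17, 0.17 for DLD1, 0.15 for COX9 and 0.13 for SDH3, with adjusted p from 0.156 (QCR9) to 0.339 (NDE2). Against cac2 it had -0.38 for NDE2, 0.30 for INH1, 0.28 for COX12, 0.19 for QCR7 and for SDH3, and 0.15 for CYB2, with adjusted p from 0.0824 (COX12) to 0.486 (CYB2). None of these values passed the threshold. The interaction estimates were -0.73 for CYB2, -0.45 for SDH1 and for COR1, -0.40 for NDE1 and for ATP1 and -0.31 for COX5A, with limma adjusted p from 0.165 (SDH1 and COR1) to 0.297 (COX5A).

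**Figure D2:**
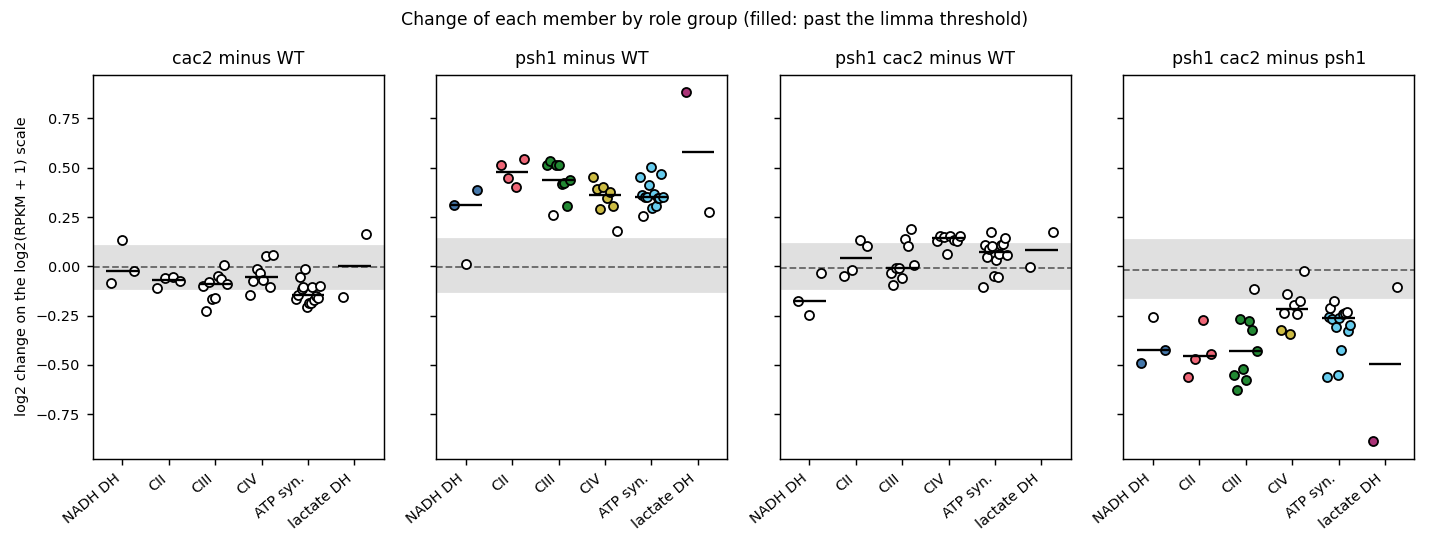
Log2 difference of each gene by role group in 4 comparisons, with filled points past the adjusted threshold and bars at the group median. The dashed line and grey band give the median and quartiles of all tested features, and in psh1 against WT the medians of the role groups lie between 0.31 and 0.58.

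The NADH dehydrogenases feed electrons from NADH to ubiquinone. NDI1 (YML120C, chromosome XIII, 28266 to 29807, 1 exon), the enzyme facing the matrix, stood at 87.6 and 95.8 RPKM in WT, 114 and 126 in psh1, 87.1 and 91.8 in psh1 cac2 and 92.9 and 87.6 in cac2. Only its psh1 libraries stood apart, and they overlapped no other genotype. Its log2 difference was 0.39 (SE 0.0798, limma adjusted p = 0.0199) in psh1 against WT and -0.42 (adjusted p = 0.00972) in psh1 cac2 against psh1. NDE1, the main external enzyme that oxidises cytosolic NADH, stood at 348 and 346 RPKM in WT, 431 and 433 in psh1, 307 and 307 in psh1 cac2 and 352 and 304 in cac2. Its psh1 libraries were again the highest, and its psh1 cac2 libraries lay below WT. It rose by 0.31 in psh1 (SE 0.0809, limma adjusted p = 0.0403) and fell by 0.49 from psh1 to psh1 cac2 (adjusted p = 0.00597).

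NDE2, the paralogue of NDE1, behaved otherwise. It stood at 37.0 and 47.2 RPKM in WT, 40.7 and 43.7 in psh1, 31.8 and 38.8 in psh1 cac2 and 51.4 and 41.1 in cac2. The WT libraries overlapped those of every other genotype, and those of cac2 and psh1 overlapped each other. The psh1 cac2 libraries lay below those of psh1 and cac2. The difference in psh1 was 0.01 (95% interval -0.33 to 0.36, limma adjusted p = 0.961), and NDE2 was the 1 gene of the 40 whose psh1 and WT libraries overlapped.

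Complex II, succinate dehydrogenase, links the citric acid cycle to the chain. All 4 of its genes rose in psh1 (median 0.48), against 7.65% of all tested features. All 4 fell from psh1 to psh1 cac2 (median -0.46), against 12.2%. SDH4 (YDR178W, chromosome IV, 817950 to 818495, 1 exon), a membrane anchor, stood at 101 and 105 RPKM in WT, 144 and 158 in psh1, 109 and 111 in psh1 cac2 and 101 and 94.4 in cac2. The psh1 libraries were the highest, and the psh1 cac2 libraries lay just above those of WT. The differences were 0.55 in psh1 against WT (SE 0.0716, limma adjusted p = 0.00834), a 1.46-fold rise on the RPKM + 1 scale, and -0.45 in psh1 cac2 against psh1 (adjusted p = 0.00532). SDH1, the flavoprotein that oxidises succinate, stood at 156 and 166 RPKM in WT, 225 and 235 in psh1, 158 and 153 in psh1 cac2 and 157 and 141 in cac2. Its psh1 libraries were alone in standing apart, with a rise of 0.51 and then a fall of 0.56 in psh1 cac2 (SE 0.0771, limma adjusted p = 0.00268). SDH2, the iron-sulphur subunit, rose by 0.45 and fell by 0.47, and SDH3, the other anchor, rose by 0.40 and fell by 0.27. SDH1, SDH3 and SDH4 have paralogues, and how reads of paralogues were assigned is not given in the sources used here.

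**Figure D3:**
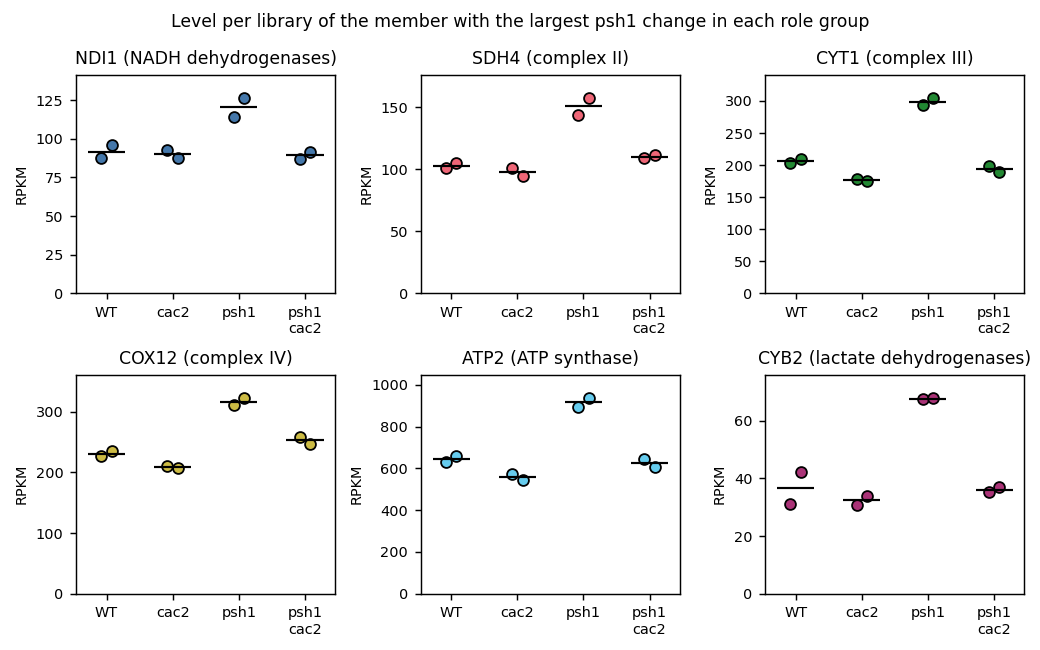
RPKM in each library for the gene of each role group with the largest change in psh1 against WT that passed the test (NDI1, SDH4, CYT1, COX12, ATP2 and CYB2), with points for libraries and bars for means of 2. In all 6 panels both psh1 points lie above every other point, which holds for 19.6% of all tested features. The genes were picked by their change in psh1 against WT, so psh1 above WT follows from the choice.

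Complex III, the cytochrome bc1 complex, passes electrons from ubiquinol to cytochrome c. Of its 9 nuclear genes 8 rose in psh1 (median 0.44), against 7.65% of all tested features. From psh1 to psh1 cac2 the number that fell was also 8 (median -0.43), against 12.2%. CYT1 (YOR065W, chromosome XV, 447439 to 448368, 1 exon), which encodes cytochrome c1, stood at 203 and 209 RPKM in WT, 293 and 305 in psh1, 198 and 189 in psh1 cac2 and 178 and 175 in cac2. The replicates lay close together, and the order from psh1 down to WT, psh1 cac2 and cac2 held with no overlap. Its mean rose from 206 ± 4.33 to 299 ± 8.29 RPKM in psh1 (SD, n = 2), a difference of 0.53 (SE 0.0652, limma adjusted p = 0.0071), and the difference in psh1 cac2 against psh1 was -0.63 (adjusted p = 0.0006). Its interaction estimate was -0.40 (limma adjusted p = 0.165).

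The other complex III genes follow by the size of their change. COR1 and QCR2, the core subunits, each rose by 0.51, QCR6 by 0.52 and RIP1, the Rieske iron-sulphur protein, by 0.44, and in psh1 cac2 against psh1 they fell by between 0.43 for RIP1 and 0.58 for QCR6. The small subunits QCR7 and QCR8 rose by 0.42 each and fell by 0.28 and 0.32. QCR9 rose by 0.31 (limma adjusted p = 0.0275), with 143 and 141 RPKM in psh1 cac2 against 155 and 153 in psh1 and 123 and 126 in WT, and its difference from psh1 to psh1 cac2 was -0.12 (adjusted p = 0.265). QCR10, the remaining subunit, differed by 0.26 between psh1 and WT (limma adjusted p = 0.0621) and by -0.27 between psh1 cac2 and psh1 (adjusted p = 0.0431).

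Complex IV, cytochrome c oxidase, reduces oxygen. Of its 8 nuclear genes 7 rose in psh1 (median 0.36), against 7.65% of all tested features. In psh1 cac2 against psh1 COX12 and COX5A fell, 2 of 8 (median -0.22), against 12.2%. With 8 genes, a count of 2 says little beside that share. COX12 (YLR038C, chromosome XII, 224921 to 225172, 1 exon), a small subunit, stood at 227 and 236 RPKM in WT, 311 and 322 in psh1, 259 and 247 in psh1 cac2 and 210 and 207 in cac2. Its psh1 cac2 libraries lay between those of WT and psh1, without overlap. The difference was 0.45 in psh1 against WT (SE 0.0660, limma adjusted p = 0.0102) and -0.32 in psh1 cac2 against psh1 (adjusted p = 0.013). COX5A, the form of subunit V used under normal oxygen, stood at 431 and 415 RPKM in WT, 541 and 578 in psh1, 445 and 437 in psh1 cac2 and 436 and 392 in cac2. The psh1 libraries lay above the rest, which were close together. COX5A rose by 0.40 (limma adjusted p = 0.0171) and fell by 0.34 (adjusted p = 0.0195).

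COX4, COX6, COX7, COX8 and COX13 rose by 0.29 to 0.39 in psh1. Their differences in psh1 cac2 against psh1, from -0.14 for COX4 to -0.24 for COX7 and COX13, did not pass (limma adjusted p from 0.0545 to 0.184). COX9, another small subunit, stood at 369 and 337 RPKM in WT, 395 and 404 in psh1, 396 and 389 in psh1 cac2 and 396 and 341 in cac2. Its genotypes were close, and the cac2 libraries overlapped those of every other genotype. Its differences were 0.18 in psh1 against WT (95% interval -0.03 to 0.38, limma adjusted p = 0.208) and -0.02 in psh1 cac2 against psh1 (-0.23 to 0.18, adjusted p = 0.864). In psh1 cac2 against WT all 8 genes of complex IV had estimates above 0, from 0.06 to 0.15, against 3053 of the 6366 features. None of the 8 passed in limma, and 0 had an unadjusted p under 0.05, against 1578 of all features. These genes are all shorter than 600 nt. Over all tested protein-coding genes the median in this comparison was 0.08 up to 300 nt and 0.09 from 300 to 600 nt.

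The ATP synthase makes ATP from the proton gradient. Of its 14 genes 13 rose in psh1 (median 0.35), against 7.65% of all tested features. Of the same 14, 10 fell in psh1 cac2 against psh1 (median -0.26), against 12.2%. ATP2 (YJR121W, chromosome X, 647607 to 649142, 1 exon) stood at 631 and 661 RPKM in WT, 896 and 936 in psh1, 645 and 605 in psh1 cac2 and 576 and 546 in cac2. The psh1 libraries were the highest, cac2 the lowest, and WT and psh1 cac2 overlapped. Its mean rose from 646 ± 21.3 to 916 ± 28.5 RPKM in psh1 (SD, n = 2), a difference of 0.50 (SE 0.0718, limma adjusted p = 0.00994), and the difference in psh1 cac2 against psh1 was -0.55 (adjusted p = 0.00204).

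Within the catalytic F1 head, ATP1, the alpha subunit, stood at 429 and 436 RPKM in WT, 584 and 602 in psh1, 410 and 394 in psh1 cac2 and 411 and 363 in cac2. WT lay above cac2 and psh1 cac2 and below psh1, without overlap. ATP1 had 0.45 in psh1 against WT and -0.56 in psh1 cac2 against psh1 (limma adjusted p = 0.00275). ATP3, the gamma subunit of the rotor, had 0.37 and -0.42, and ATP16, the delta subunit, 0.35 and -0.27, all past the threshold. ATP15, the epsilon subunit, at 219 and 210 RPKM in WT and 252 and 261 in psh1, did not overlap between these genotypes but missed the threshold (0.26, limma adjusted p = 0.0601). The psh1 cac2 libraries of ATP15, at 218 and 225 RPKM, lay near WT.

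The stator genes ATP4, ATP5, ATP7 and ATP14 rose by 0.30 to 0.36 in psh1. Between psh1 and psh1 cac2 ATP4 (-0.24) and ATP14 (-0.26) passed, while ATP5 (-0.24, limma adjusted p = 0.0539) and ATP7 (-0.23, adjusted p = 0.0663) lay just outside. Of the small membrane subunits, ATP18 (0.41), ATP17 (0.35), TIM11 (0.35) and ATP20 (0.29) rose, and all but ATP17 (-0.18, limma adjusted p = 0.0905) fell in psh1 cac2. INH1, the inhibitor that binds F1 when the gradient collapses, stood at 131 and 142 RPKM in WT, 182 and 197 in psh1, 154 and 148 in psh1 cac2 and 127 and 117 in cac2. Its psh1 cac2 libraries lay between WT and psh1, with a rise of 0.47 in psh1 (SE 0.0798, limma adjusted p = 0.0113) and -0.33 in psh1 cac2 against psh1 (adjusted p = 0.0245).

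The lactate dehydrogenases pass electrons from lactate to cytochrome c. CYB2 (YML054C, chromosome XIII, 165533 to 167308, 1 exon), which oxidises L-lactate in the intermembrane space, stood at 31.1 and 42.1 RPKM in WT, 67.4 and 67.8 in psh1, 35.1 and 37.1 in psh1 cac2 and 30.7 and 34.0 in cac2. The psh1 libraries stood far above the rest, and the WT range enclosed the psh1 cac2 libraries. CYB2 had the largest change of the 40 genes in psh1 against WT, 0.88 (SE 0.126, 95% interval 0.59 to 1.18, limma adjusted p = 0.00994), or 1.85-fold, and in psh1 cac2 against psh1, -0.89 (adjusted p = 0.00302). Its interaction estimate was -0.73 (SE 0.178, limma adjusted p = 0.166).

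DLD1, the D-lactate enzyme of the inner membrane, had another order of levels. It stood at 74.8 and 80.3 RPKM in WT, 93.1 and 95.2 in psh1, 93.3 and 82.0 in psh1 cac2 and 87.8 and 86.0 in cac2. WT was lowest, and psh1 cac2 overlapped both single mutants. Its difference was 0.28 for psh1 minus WT (limma adjusted p = 0.0508) and that in psh1 cac2 against psh1 -0.11 (adjusted p = 0.352).

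Outside the lactate pair, the rise in psh1 had medians of 0.48 in complex II and 0.44 in complex III. It had 0.36 in complex IV, 0.35 in the ATP synthase and 0.31 in the NADH dehydrogenases, which include NDE2. The fall to psh1 cac2 had medians of -0.46 in complex II, -0.43 in complex III and -0.42 in the NADH dehydrogenases, against -0.26 in the ATP synthase and -0.22 in complex IV. Both comparisons share the psh1 libraries. The difference between complexes was not tested, since genes of a complex share libraries and are not replicates. The differences also ran with gene length. Between psh1 and psh1 cac2 the 10 genes of up to 300 nt had a median of -0.28, the 14 of 300 to 600 nt -0.26, the 7 of 600 to 1200 nt -0.43 and the 9 longer ones -0.55. Over all tested protein-coding genes the same classes had medians of 0.03, 0.04, 0.01 and -0.05.

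Spearman's rho between gene length and the log2 difference in psh1 cac2 against psh1 was -0.50 over the 40 genes and -0.15 over 5845 protein-coding genes, all measured in the same 4 libraries. In psh1 cac2 against WT it was -0.56 and -0.33, and in psh1 against WT 0.27 and -0.10. Whether the length relation of the whole table came from the libraries or the genotypes cannot be told apart, and its part in the differences between complexes was not tested. With the length trend of all genes removed, an alternative chosen after seeing the data, 36 of 40 genes rose in psh1 (median 0.34), where 7.38% of the 5869 features in that fit did, and 33 fell in psh1 cac2 against psh1 (median -0.32), where 11.9% did.

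**Figure D4:**
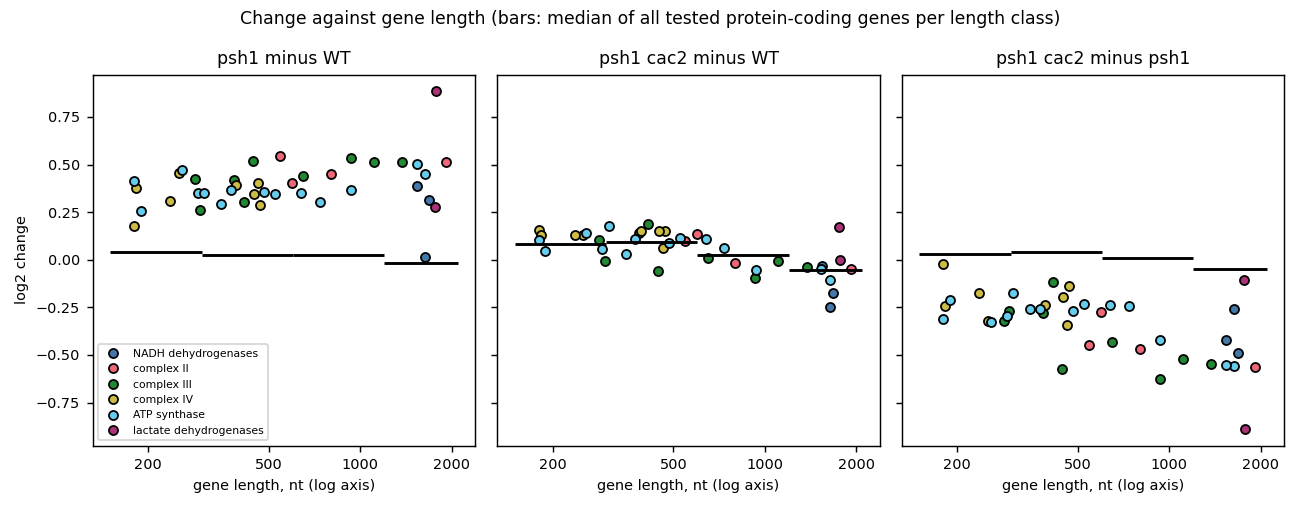
Log2 difference of each of the 40 genes against gene length in nucleotides on a log axis, in 3 comparisons, with bars at the median of all tested protein-coding genes in each length class. In psh1 cac2 against psh1 the 9 genes over 1200 nt have a median of -0.55, and the 10 genes of up to 300 nt one of -0.28.

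The genes with and without ACCAATNA had close median differences. In psh1 against WT the median difference was 0.37 over the 18 genes with the match and 0.40 over the 22 without it, and in psh1 cac2 against psh1 it was -0.29 in both. Most of those 22 genes still hold the shorter CCAAT. Over the 37 genes with CCAAT and the 3 without, the medians were 0.39 and 0.29 in psh1 against WT. In psh1 cac2 against psh1 they were -0.30 and -0.26. No test was run on either split. CYT1, which had no CCAAT in its window, was among the genes with the largest changes. NDE2 and COX4, also without it, were among those with small changes in psh1. The search took exact letters in a fixed window, so a missing match does not place a gene outside control by the CCAAT-binding complex. Such control was not tested.

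Further genes that serve the chain were counted in 8 lists, to be read against the 7.65% of all features that rose and the 6.90% that fell in psh1. One list of 9 genes holds both cytochrome c genes, CYC1 and CYC7, and paralogues or isoforms of subunits and related enzymes (COX5B, SHH3, SHH4, DLD2, DLD3, STF1 and STF2). Of these 9 genes 3 rose in psh1 and 0 fell, 6 values were above 0 and 3 below, from -0.30 for SHH3 to 0.76, and the median was 0.25. The largest change was in CYC7, the cytochrome c isoform raised at low oxygen. CYC7 stood at 112 and 123 RPKM in WT, 204 and 197 in psh1, 96.2 and 109 in psh1 cac2 and 63.4 and 66.3 in cac2. All 4 genotypes were apart, with cac2 lowest and psh1 highest. It rose by 0.76 in psh1 (limma adjusted p = 0.00582), fell by 0.85 in cac2 (adjusted p = 0.000649), fell by 0.97 from psh1 to psh1 cac2 (adjusted p = 0.000187), and was 0.65 higher in psh1 cac2 than in cac2 (adjusted p = 0.0361). CYC1, the main cytochrome c, rose by 0.71 in psh1 (limma adjusted p = 0.0102), and COX5B, the low-oxygen partner of COX5A, by 0.45 (adjusted p = 0.0104).

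Of 13 regulators of respiratory genes 1 rose and 1 fell in psh1 (median 0.15), which is near the shares of all features. The activator gene ADR1 rose by 0.38 (limma adjusted p = 0.0242), and HAP1, which encodes the haem-responsive activator of CYC1 and CYC7, fell by 0.43 (adjusted p = 0.0104). HAP1 stood at 280 and 276 RPKM in WT, 209 and 204 in psh1, 380 and 391 in psh1 cac2 and 459 and 444 in cac2. Its order across the genotypes, cac2 highest and psh1 lowest with no overlap, was the reverse of that of CYC7. HAP1 was higher in cac2 than in WT (0.70, limma adjusted p = 0.000546), in psh1 cac2 than in WT (0.47, adjusted p = 0.00546) and in psh1 cac2 than in psh1 (0.90, adjusted p = 9.87e-05).

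HAP4, which encodes the activating subunit of the CCAAT-binding complex, stood at 98.3 and 87.1 RPKM in WT, 102 and 103 in psh1, 71.6 and 77.3 in psh1 cac2 and 103 and 75.5 in cac2. Its psh1 libraries were close to WT replicate 1, and the difference in psh1 against WT was 0.15 (limma adjusted p = 0.496). Between psh1 and psh1 cac2, 3 of the 13 regulators fell and 1 rose, with 5 values above 0 and a median of -0.15. Among all features 12.2% fell and 11.2% rose. HAP4 fell by 0.46 (limma adjusted p = 0.0456), ADR1 by 0.42 and CAT8, another activator of genes for nonfermentable carbon, by 0.36. HAP2, HAP3 and HAP5, which encode the DNA-binding subunits, had differences of 0.15, 0.16 and 0.11 in psh1 against WT and did not pass.

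Assembly and synthesis genes were counted by list in psh1 against WT, and the lists were not tested against each other or against the subunits. Of 10 coenzyme Q synthesis genes 3 rose (median 0.22, the largest COQ6 at 0.34), and of 32 complex IV assembly and translation genes 7 rose (median 0.17, the largest COA2 at 0.42). The counts of the smaller assembly lists were near the shares of all features. Of 12 complex III assembly genes 1 rose, CBP4 (0.40, limma adjusted p = 0.0245). Of 5 complex II assembly genes 0 passed in limma and 0 had an unadjusted p under 0.05 (median 0.07), against 2028 of the 6366 features. Of 12 ATP synthase assembly genes ATP12, a chaperone gene of the F1 head, rose by 0.22 and NCA3 fell by 0.66 (limma adjusted p = 0.0173).

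From psh1 to psh1 cac2 the counts of fallen genes in these lists are to be read against the 12.2% of all features that fell. They numbered 3 of 10 for coenzyme Q synthesis, 5 of 32 for complex IV assembly, with COX19 at -0.46 (limma adjusted p = 0.0163), 2 of 12 for complex III assembly, with CBP4 at -0.60 (adjusted p = 0.0035), and 3 of 12 for ATP synthase assembly, where 1 rose and 5 of 12 values were above 0. Of the 5 complex II assembly genes 0 passed in limma, and 0 had an unadjusted p under 0.05, against 2456 of the 6366 features. In the list with the cytochrome c genes 4 of 9 fell and 1 rose, where 11.2% of all features rose. Against WT, in cac2 and in psh1 cac2, HAP1 and in cac2 also CYC7 were the called genes of these 8 lists, and CYC7 was the called gene in psh1 cac2 against cac2.

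**Figure D5:**
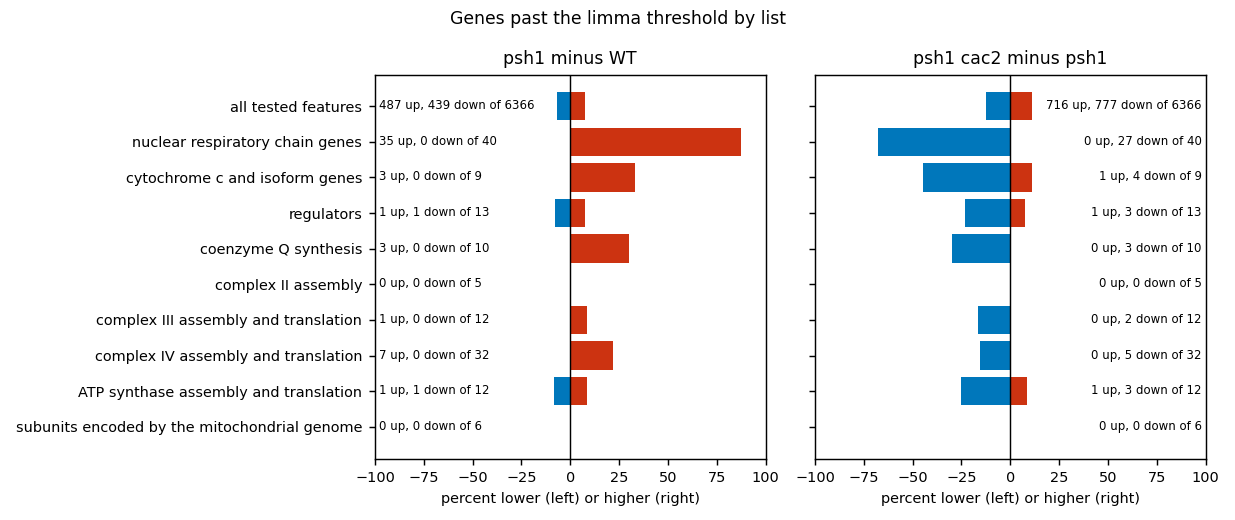
Percent of genes higher (right) and lower (left) past the adjusted threshold in the 40 nuclear genes and in 8 lists of related genes, for psh1 against WT and psh1 cac2 against psh1. Of the nuclear genes 35 of 40 were higher in the first comparison, against 7.65% of all tested features, and of the mitochondrially encoded subunits 0 of 6 in either, a number too small to set beside those shares.

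None of the subunits encoded in the mitochondrial genome was called. Of 7 such genes 6 passed the filter (ATP8 did not), and 0 of 6 passed in any of the 6 comparisons with limma, where from 0 to 3 had an unadjusted p under 0.05. Over all 6366 features that unadjusted count ran from 866 (interaction) to 2456 (psh1 cac2 against psh1). With 6 genes and 14.5% of all features called in psh1 against WT, a count of 0 says little about this list. Their median was 0.06 in psh1 against WT, a difference from the nuclear genes that was not itself tested. OLI1, the ring subunit of the ATP synthase, stood at 5513 ± 130 RPKM in WT, 5743 ± 84.3 in psh1, 6429 ± 157 in psh1 cac2 and 5108 ± 136 in cac2 (SD, n = 2). COX1, the catalytic subunit of complex IV, had means of 897, 996, 933 and 828 RPKM in the same order, and COB, the cytochrome b of complex III, 332, 336, 316 and 308. In OLI1 the psh1 cac2 libraries were the highest. By its means COX1 was highest in psh1 and lowest in cac2, and COB ran from 308 to 336 RPKM.

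The induced gene itself differed between the genotypes. CSE4 stood at 15605 ± 1442 RPKM in WT, 9871 ± 362 in psh1, 23172 ± 529 in psh1 cac2 and 18962 ± 1423 in cac2 (SD, n = 2), so the libraries with the most respiratory transcripts had the least CSE4 RNA, and its part in the differences was not tested. Reads of PSH1 numbered 1076 and 1128 in WT, 0 and 2 in psh1, 2 and 1 in psh1 cac2 and 932 and 1032 in cac2. Reads of CAC2 numbered 837 and 941 in WT, 931 and 1155 in psh1, 7 and 4 in psh1 cac2 and 1 and 2 in cac2, so the libraries match their labels. The reads recovered from the RPKM steps and lying in annotated genes ran from 28205331 to 32099515 per library, and the 40 genes had between 888 and 51526 reads each, and replicates differed by a chi-square of 19.7 to 28.7 per degree of freedom, that is, by more than counting error.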

How the data were processed

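The authors deposited RPKM values of 7126 features as 1 table with 8 columns. Among the tools, edgeR 3.14.0, TopHat2 2.0.13 and bcl2fastq 2.18 are listed per the submitters' processing notes, with build sacCer3. What counted the reads, and with which strand setting, is not given in the sources used here, and reads of paralogues or overlapping genes may be split. None of the 40 genes overlaps another RefSeq gene of R64, the assembly that sacCer3 names.

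Log2(RPKM + 1) was fitted with limma 3.58.1 in R 4.3.3 over all 8 libraries by genotype, with an intensity trend, for the 6366 features whose mean RPKM was 1 or more. P-values were adjusted by Benjamini-Hochberg over all of them, with a threshold of 0.05. The labels say that cultures were grown in duplicate, and p-values measure the spread between such cultures of 1 strain. RPKM steps gave whole reads, within 0.01, for 99.8% of values of the 6048 features matched to an annotated gene by systematic name. These reads served for depths, shares and the scaling by total reads, and no count model was run. The library sizes implied by the RPKM values were 1.00 to 1.16 times the reads recovered. The script was tested on simulated data.

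The members and lists were chosen with earlier results of these data known. Genes given with full values are those with the largest passing change per role group and comparison (the largest change where none passed), and the uncalled or contrasting genes were added after their values were seen. Alternatives were other pseudocounts, filters and scalings, the compared pair alone, no trend, a replicate block, leaving out each library, and removing the length trend.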

Additional observations from a re-analysis of the deposited data

How the results depend on the processing

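Among the 40 genes the counts of calls moved with some settings. Scaling by total reads gave 19 calls in cac2 against WT (all lower, with 24.3% of all features lower) and 2 in psh1 cac2 against cac2 (higher, with 2.40% of all features higher and 0.566% lower), where the values as reported gave 0. Quantile normalization gave 1 call in cac2 against WT (lower, with 1.89% of all features lower), which is near the share of all features. It gave 30 in place of 35 in psh1 against WT (with 6.69% of all features higher). In psh1 cac2 against psh1 it gave 16 in place of 27 (with 9.43% of all features lower). Leaving out 1 library at a time, with the lone sample of a genotype assumed to vary like the others, gave 1 to 35 calls in psh1 against WT, 11 to 28 in psh1 cac2 against psh1, and 0 in the other 4 comparisons. Same-numbered replicates did not all deviate together (correlations of 0.038 to 0.443 between pairs of genotypes), so the numbers were not taken to pair the samples. A replicate block gave 38 calls in psh1 against WT (13.9% of all features higher, in place of 7.65%), 33 in psh1 cac2 against psh1 (19.2% lower, in place of 12.2%), 5 in psh1 cac2 against cac2 (4.38% higher, in place of 0.393%), 1 in cac2 against WT (7.996% lower, in place of 1.51%) and 1 in the interaction (0.801% lower). Why these counts moved was not tested. Leaving out 1 library also leaves the fit with fewer libraries.

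Of the 62 calls among the 40 genes, 35 in psh1 against WT and 27 in psh1 cac2 against psh1, none changed direction under any of the alternatives run. Without psh1 replicate 2, 12 of the 62 passed. Quantile normalization kept 46, and fitting the compared pair alone kept 53. With the pair alone 4.40% of all features rose in psh1 against WT, and 12.4% fell in psh1 cac2 against psh1. CYT1 in psh1 against WT passed under all 19 alternatives, with adjusted p from 0.00284 to 0.0492 (limma). The uncalled NDE2 value in cac2 against WT (log2, reported as 0.13) turned to -0.0099 with scaling by total reads, ran from -0.038 to 0.305 when 1 library was left out, and was below 0 without WT replicate 1 or cac2 replicate 1, and the uncalled SDH1 value turned to 0.0071 with quantile normalization. With 2 libraries per genotype the tests reach only differences well above the spread between duplicates.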
